A study of Bos taurus with 20 samples.

Results

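RIGI, IFIH1 (also called MDA5) and DHX58 (also called LGP2), the RIG-I-like sensors of viral RNA, and IRF9, a transcription factor of the interferon response, were followed in the bovine endometrium at day 18. The genes were taken as all clones of the 18KB array, a spotted cDNA array, to which the platform's gene table assigns a single symbol among these 4. That gave 12 clones of 1536, of which 8 belong to RIGI (gene identifier 504760), 2 to IFIH1 (535490), 1 to DHX58 (508378) and 1 to IRF9 (509855); the array holds 202 clones with a single symbol, for 86 genes. All 4 identifiers were found in the RefSeq gene table of cattle under the same symbols, and none of these genes is named on the companion 18KO array. Endometrium had been taken on day 18 from 4 pregnant heifers, inseminated with frozen sperm and carrying an intact conceptus that was removed, and from 6 cyclic control heifers, inseminated with sperm-free supernatant of an ejaculate of that bull and without a conceptus. All were Simmental heifers (Deutsches Fleckvieh) whose cycles had been synchronised with the prostaglandin analogue Cloprostenol, 17 to 20 months old in the pregnant and 18 to 22 months in the control group. The tissue was intercaruncular endometrium (lamina propria), which lies between the placental attachment sites, in the caudal part of the ipsilateral horn. Each animal gave 1 RNA sample and 1 column of radioactive spot intensities on the 18KB array. Precision is limited by the number of animals.

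RIGI and IFIH1 are helicases that bind double-stranded or otherwise foreign RNA in the cytoplasm and signal through paired caspase recruitment domains to the mitochondrial adaptor MAVS, which leads to the transcription of type I interferon. DHX58 shares their helicase but lacks these signalling domains, and it modulates the other sensors. IRF9 binds DNA within ISGF3, the complex that forms downstream of the type I interferon receptor and turns on interferon-stimulated genes, among them the sensors themselves. In ruminants the trophoblast of the early conceptus secretes interferon tau, a type I interferon that acts on the endometrium without an infection.

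Transcripts of all 4 genes were higher in pregnant endometrium: RIGI by 9.54-fold, IFIH1 by 4.57-fold, DHX58 by 4.03-fold and IRF9 by 3.12-fold on the deposited scale. With equal column medians the same folds were 5.36, 2.57, 2.26 and 1.75. By the mean over its clones, RIGI rose more than each of the other 3 genes, compared through the log2 difference of each pair of genes within an animal. Of its 8 clones, 6 changed by more than the IFIH1 clone of largest change. A clone or gene counted as called when the limma p-value, adjusted by the Benjamini-Hochberg method over the whole array, was under 0.01 and the fold change at least 2, the thresholds of the study's own analysis. All 4 genes and all 12 clones were called higher on the deposited scale; with equal column medians IRF9 was not. Over the array, 20.5% of clones were called higher, 15.6% of genes and clones without a single name, and 77.9% of the 86 named genes. The last share is the background to read the members against, and by it their count is not a result about these genes. Per the series design text, the spotted library had been enriched for transcripts higher in pregnant animals, and clones were sequenced, and so got a name, mainly because they differed between these animals. The 4 genes had a median log2 fold change of 2.10, against 1.85 for all named genes and 0.38 for all features fitted. In bulk tissue, fewer or more cells of a type cannot be told apart from less or more RNA per cell.

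**Figure D1:**
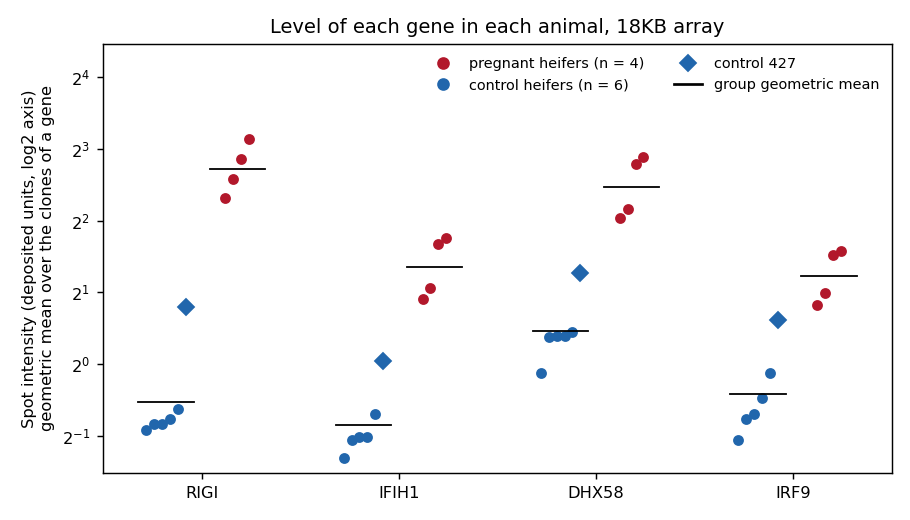
Spot intensity of RIGI, IFIH1, DHX58 and IRF9 (log2 axis, deposited units, geometric mean over the clones of a gene) in 4 pregnant (red) and 6 control heifers (blue), with the geometric mean of each group as a line. Every pregnant animal lies above every control for each gene, and control 427 (diamond) is the highest control for each.

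RIGI, the sensor of short double-stranded RNA with a triphosphate end, had geometric mean intensities over its 8 clones of 8.79 in pregnant 447, 7.26 in 426, 5.96 in 316 and 4.97 in 448. Controls ran from 0.528 in control 434 over 0.559 in 440, 0.562 in 449, 0.589 in 330 and 0.648 in 404 to 1.73 in 427. The groups did not overlap: the lowest pregnant animal stood 2.88-fold above control 427 and 7.67-fold above the next control. On the log2 scale the means were 2.72 ± 0.36 (SD, n = 4) and -0.53 ± 0.65 (SD, n = 6), a difference of 3.25 ± 0.33 (SE, limma adjusted p = 3.57e-05). The other 5 controls lay close together and far below the pregnant animals, and the larger SD of the control group came with control 427.

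IFIH1, the sensor of long double-stranded RNA, was represented by 2 clones. Its geometric mean intensity was 3.38 in pregnant 426, 3.19 in 447, 2.09 in 448 and 1.87 in 316. In controls it was 1.03 in 427, 0.617 in 434, 0.495 in 440, 0.494 in 404, 0.480 in 449 and 0.405 in 330. The lowest pregnant animal was 1.81-fold above control 427, and the log2 difference of the group means was 2.19 ± 0.28 (SE, limma adjusted p = 0.000126). On the deposited scale pregnant animals 426 and 447 were high and 316 and 448 lower, a split also seen in the mean of RIGI and in the next 2 genes. The column medians of these animals split the same way, at 3.045 and 3.18 against 2.495 and 2.71. So did the mean log2 level of 24 other interferon-stimulated genes, at 3.06 and 3.24 against 2.50 and 2.55. Relative to the column median the split held for IFIH1, DHX58 and IRF9 but not for RIGI, at 1.26 in 316 and 1.25 in 426.

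DHX58, the sensor-like helicase without signalling domains, had intensities in its single clone of 7.39 in pregnant 426, 6.90 in 447, 4.47 in 316 and 4.12 in 448. Controls 330, 404, 434 and 440 were nearly equal, with 1.30 in 330, 1.31 in both 434 and 440 and 1.36 in 404, while control 449 had 0.92 and control 427 had 2.42. The groups did not overlap, with a gap of 1.70-fold, and the log2 difference was 2.01 ± 0.27 (SE, limma adjusted p = 0.000189). The controls spanned 2.63-fold, with 449 lowest and 427 highest, and the pregnant animals 1.79-fold.

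IRF9, the DNA-binding subunit of ISGF3, had intensities in its single clone of 2.97 in pregnant 426, 2.88 in 447, 1.98 in 448 and 1.77 in 316. Controls had 1.53 in 427, 0.92 in 440, 0.72 in 330, 0.62 in 449, 0.59 in 434 and 0.48 in 404. The groups came close to each other, since the lowest pregnant animal was only 1.16-fold above control 427 and 1.92-fold above the next control. The log2 difference was 1.64 ± 0.31 (SE, limma adjusted p = 0.00189), the smallest rise of the 4 genes. Every pregnant animal exceeded every control in all 4 genes, as in 22.3% of all features fitted and 75.6% of the named genes.

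**Figure D2:**
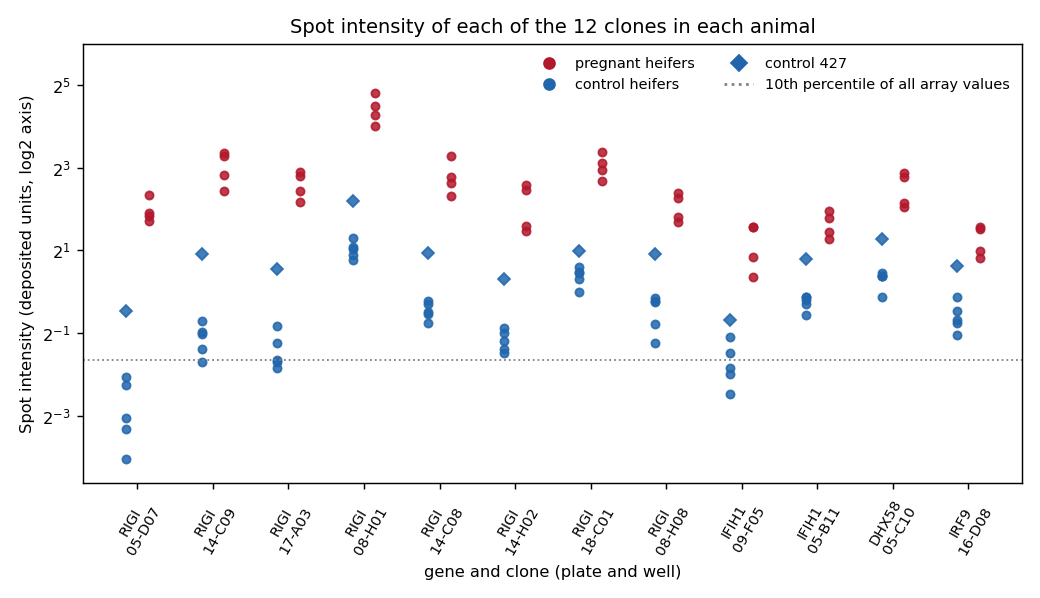
Spot intensity (log2 axis, deposited units) of each of the 12 clones in 4 pregnant (red) and 6 control heifers (blue; control 427 as a diamond), ordered within a gene by the size of the change; clones are given by plate and well, and the dotted line is the 10th percentile of all array values (0.32). The groups do not overlap in any of the 12 clones, and the RIGI clones differ in both level and fold.

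The 8 clones of RIGI share a target and are not replicates of the condition, but they show how far the size of the rise differed between clones. Log2 fold changes ran from 2.33 ± 0.36 (SE) for clone 18KB-08-H08 to 4.49 ± 0.56 for clone 18KB-05-D07, with a median of 3.09. The change of a clone correlated at -0.70 with its control level (Pearson, 8 clones, no test), a level that itself enters the change. Whether the spread came from the fragment or from low control signal was not tested. In clone 18KB-05-D07, which had the lowest control level of the 8, intensities were 5.11 in pregnant 447, 3.76 in 316, 3.59 in 426 and 3.30 in 448. Its controls were 0.72 in 427 and 0.06 to 0.24 in the other 5, all of these 5 under the 10th percentile of the array (0.32).

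In the brightest clone, 18KB-08-H01, intensities were 28.14 in pregnant 447, 22.55 in 426, 19.46 in 316 and 16.19 in 448. Its controls were 4.61 in 427 and 1.69 to 2.45 in the other 5. The rise in this well-measured clone was 9.12-fold (log2 3.19 ± 0.28), close to the mean over all 8. In clone 18KB-08-H08, with the smallest rise, pregnant animals had 3.23 to 5.26 and controls 0.42 to 1.89, with control 427 the highest of them. The log2 values of the clones correlated at 0.90 to 0.99 (Pearson, 10 animals, no test), correlations that hold the gap between the groups. After the mean of each group was removed they were 0.39 to 0.94, and the order of the controls below 427 differed between clones: control 404 was next to 427 in clone 18KB-05-D07 (0.24) and lowest in clone 18KB-08-H08 (0.42).

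The IFIH1 clones also differed in size. Clone 18KB-05-B11 had intensities of 2.43 to 3.88 in pregnant animals and 0.68 to 1.72 in controls, a log2 fold change of 1.71 ± 0.26. Clone 18KB-09-F05 had 1.28 to 2.95 and 0.18 to 0.62, a log2 fold change of 2.67 ± 0.36, with 3 of its 6 controls under the 10th percentile. No value of the 12 clones was at or below the floor of 0.01, and the 11 of 120 values under the 10th percentile were all from controls. In each of the 12 clones the groups did not overlap, as in 26.7% of all clones of the array. In all 12 the highest control was 427, while the highest pregnant animal was 447 in 9 and 426 in 3, and the lowest was 448 in 10 and 316 in 2.

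The genes were then compared with each other through their log2 difference within each animal, a quantity that a common factor on a column does not change. RIGI rose more than IFIH1 by 1.06 ± 0.18 (SE) on the log2 scale, that is 2.09 times as much. It rose more than DHX58 by 1.24 ± 0.16 and more than IRF9 by 1.61 ± 0.20. In each of these 3 pairs the within-animal differences of the groups did not overlap, and the two-sided exact permutation p was 0.00476, the smallest that 210 splits can give (0.00952 adjusted over 6 pairs). For RIGI and IRF9 the difference was 1.29 to 1.75 in pregnant animals and -0.72 to 0.43 in controls. IFIH1 rose more than IRF9 by 0.55 ± 0.17 (exact permutation p = 0.0286, adjusted 0.0429), a call lost in 8 of the 10 comparisons that left out 1 animal each (adjusted p up to 0.0833). Those comparisons have fewer splits and so coarser p-values, and the difference itself ran from 0.46 to 0.65 in them.

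The pairs that missed the threshold of 0.05 were IFIH1 against DHX58, at 0.18 ± 0.12 (exact permutation p = 0.257), and DHX58 against IRF9, at 0.37 ± 0.17 (exact permutation p = 0.119). Neither p shows that these genes rose alike. The larger rise of RIGI is a statement about the mean of its named clones. Clones got a name mainly because they differed between these animals, and the p-values of the pairs do not allow for that choice. All 8 RIGI clones had larger changes than the DHX58 clone, the IRF9 clone and IFIH1 clone 18KB-05-B11, but 6 of the 8 exceeded IFIH1 clone 18KB-09-F05. With the RIGI clone of smallest change set against the IFIH1 clone of largest change, a choice made after seeing the data, the difference was -0.34 ± 0.25 for RIGI and IFIH1 (exact permutation, adjusted p = 0.297) and 0.32 ± 0.24 for RIGI and DHX58 (adjusted p = 0.348).

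**Figure D3:**
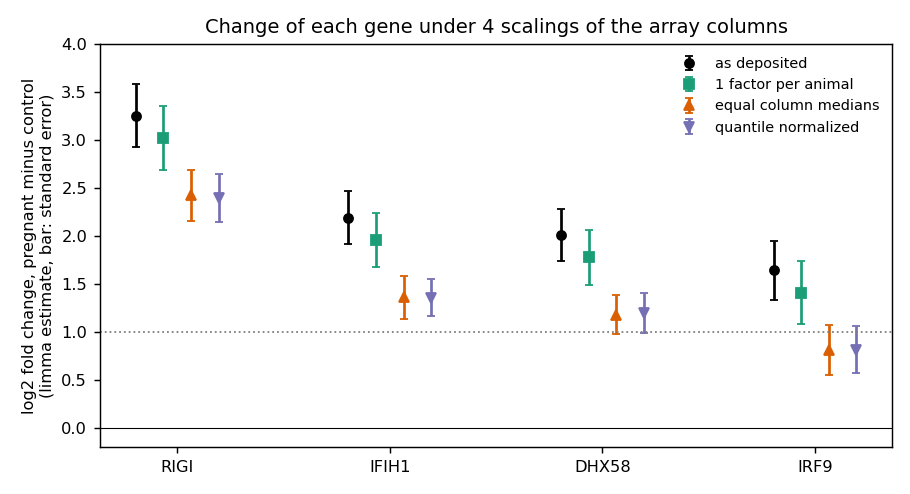
Log2 fold change of each gene, pregnant minus control (limma estimate, bars are standard errors, 4 against 6 animals), with the columns as deposited and under 3 other scalings; the dotted line marks a 2-fold change. RIGI stays highest and IRF9 lowest, and IRF9 falls to 0.81 with equal column medians and after quantile normalization.

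The columns of pregnant animals had higher medians over all 1536 clones (2.50 to 3.18) than those of controls (1.39 to 1.90). The sources used here do not state how the deposited columns were scaled. With equal column medians, the array-wide median of the log2 fold changes went from 0.44 to -0.39. RIGI then had a log2 fold change of 2.42 ± 0.27 (SE), IFIH1 1.36 ± 0.22 and DHX58 1.18 ± 0.20, all still called. IRF9 had 0.81 ± 0.26 (limma adjusted p = 0.0222) and was no longer called, nor was it after quantile normalization (0.81 ± 0.25, adjusted p = 0.0163). Clone 18KB-05-B11 of IFIH1 also lost its call under both scalings (0.88 and 0.89). Of all named genes, 45.3% were called higher with equal column medians and 52.3% after quantile normalization.

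Relative to the column median, the groups still did not overlap for RIGI, IFIH1 and DHX58. The share of named genes without overlap was not computed on this scale, so this is not a result about these genes. RIGI lay 0.88 to 1.47 log2 units above the median in pregnant animals, 0.14 below it in control 427 (-0.14) and from -1.56 to -1.30 in the other controls. IRF9 lay at -0.50 to -0.04 in pregnant animals and at -0.31 in control 427, so that 2 of the 4 pregnant animals were above that control. The other 5 controls had -1.79 to -0.67, below all pregnant animals.

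Control 427 carried more of all 4 transcripts than the other controls, both on the deposited scale and relative to the column median. Relative to that median, IFIH1 was at -0.88 against -1.34 in the next control, and DHX58 at 0.35 against -0.16. The trait was not particular to these genes. The mean log2 level of 24 other interferon-stimulated genes was 1.25 in control 427 and -0.14 to 0.25 in the other controls. Against the median control on the deposited scale, control 427 had 3.0-fold the RIGI level, 2.29-fold that of IRF9, 2.09-fold that of IFIH1 and 1.85-fold that of DHX58. It was labelled as a day 18 cyclic animal like the others. Its column median was the highest of the controls (1.90), and its column, like those of pregnant 426 and 447, held no value at or below 0.01, where the other 7 held 9 to 16. Without control 427 the log2 fold changes were 3.52 for RIGI, 2.37 for IFIH1, 2.17 for DHX58 and 1.85 for IRF9. With those 3 arrays as a block they were 2.91, 1.90, 1.73 and 1.34, and all 4 genes were called in both fits.

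**Figure D4:**
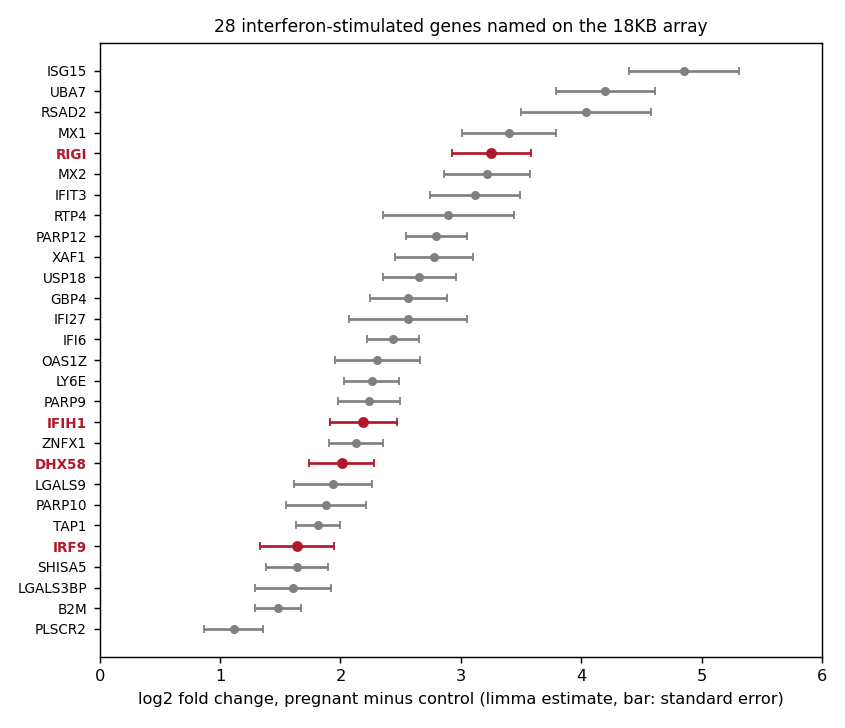
Log2 fold change, pregnant minus control (limma estimate, bars are standard errors, 4 against 6 animals), of the 28 listed interferon-stimulated genes with a name on the 18KB array; the RNA sensors and IRF9 are in red. RIGI stands 5th from the top, IFIH1 18th, DHX58 20th and IRF9 24th.

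Of 73 listed interferon-stimulated genes, 28 have a name on this array, and all 28 were called higher, against 77.9% of all named genes, with a median log2 fold change of 2.37. With equal column medians, a check of the list added after seeing the data, 22 of the 28 were called higher, against 45.3% of all named genes, and IRF9, LGALS3BP, PLSCR2, TAP1, B2M and SHISA5 were not. Among them RIGI ranked 5 by the size of its rise, IFIH1 18, DHX58 20 and IRF9 24. The change of each gene was also set against the mean change of the 24 others (2.58) within animals, a test added after seeing the data. The 24 have a name mainly because their clones differed between these animals. Their mean is therefore no reference for interferon-stimulated genes in general. RIGI rose by 0.67 ± 0.10 (SE) more than that mean (two-sided exact permutation p = 0.00476, adjusted over 4 tests 0.00952).

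The other 3 genes, each as the mean of its clones, rose less than the mean of the 24. DHX58 differed by -0.57 ± 0.10 (exact permutation p = 0.00476, adjusted 0.00952), IRF9 by -0.94 ± 0.17 (p = 0.00952 by the exact permutation test, adjusted 0.0127) and IFIH1 by -0.39 ± 0.13 (p = 0.0238 by the exact permutation test, adjusted 0.0238). Relative to the 24 genes, RIGI stood at -0.24 to 0.07 in pregnant animals and at -0.95 to -0.46 in controls. IRF9 stood at -1.71 to -1.49 in pregnant animals and at -1.31 to -0.12 in controls, a wide control range, and IFIH1 overlapped between the groups. Without control 427 the values were 0.74 for RIGI, -0.61 for DHX58, -0.93 for IRF9 and -0.41 for IFIH1. By single clones, 6 of the 8 RIGI clones and 1 of the 2 IFIH1 clones (18KB-09-F05, 2.67) changed by more than 2.58, so that for IFIH1 the direction depends on the clone.

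**Figure D5:**
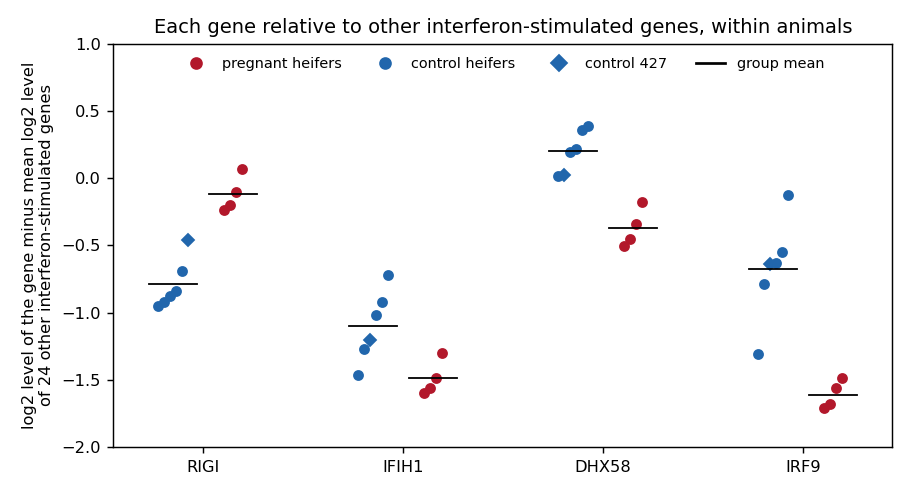
Log2 level of each gene minus the mean log2 level of 24 other interferon-stimulated genes in the same animal, for 4 pregnant (red) and 6 control heifers (blue; control 427 as a diamond), with group means as lines. RIGI is higher in pregnant animals on this scale, DHX58 and IRF9 are lower without overlap, and IFIH1 overlaps.

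Few other genes of these pathways have a name on the array. Of 41 listed genes of RNA sensor signalling and its regulators, 3 did, and all 3 were called higher, where 77.9% of all named genes were, so that neither this count nor the next is a result about the list: ISG15, a ubiquitin-like modifier that is attached to RIGI among other proteins (log2 4.85 ± 0.46), UBA7, its activating enzyme (18.4-fold, SE 0.41 on the log2 scale), and USP18, the protease that removes it (2.66 ± 0.30). Of 26 other proteins that sense or bind double-stranded or foreign RNA, 2 had a name and both were called higher: OAS1Z, an oligoadenylate synthetase activated by double-stranded RNA (2.31 ± 0.35), and IFIT3, of a family that binds viral RNA (3.12 ± 0.38). None of 23 listed genes between the interferon receptor and ISGF3 was analysed here.

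The animal-to-animal pattern within groups was compared by the Pearson correlation of log2 levels after the column median and the group mean were removed (10 animals, 82 other named genes, no test). RIGI was most like ISG15 (0.96), UBA7 (0.93) and the locus LOC509283 (0.92). IFIH1 was most like the locus LOC511531 (0.94), IFIT3 (0.82) and XAF1, an apoptosis-related factor (0.82). DHX58 was most like ZNFX1, a helicase with zinc fingers (0.84), UBA7 (0.84) and USP18 (0.82).

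IRF9 was most like NDP, the secreted protein norrin (0.83), whose own log2 fold change was -0.51, and then like USP18 (0.81) and MX2, an antiviral GTPase (0.80). Among the 4 genes themselves the correlations were 0.67 to 0.78. Much of this likeness came with control 427: without it, the correlation of RIGI with ISG15 was 0.64 and those among the 4 genes were 0.26 to 0.57, while that of IFIH1 with LOC511531 was 0.93.

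Some markers of other cells also differed between the groups, and their part in these results was not tested. On the deposited scale 77.9% of all named genes were called higher, so the counts of trophoblast and leukocyte markers called higher are not a result about them. Of 19 listed trophoblast markers 3 had a name. IFNT2 and TKDP1 were called higher, TKDP4 was not (limma adjusted p = 0.0326), and all 3 overlapped between the groups. In pregnant 316, IFNT2 was at 0.586, below control 427 at 0.683. With equal column medians none of the 3 was called. Their summed intensity was 1.44 to 41.7 in pregnant and 0.955 to 1.79 in control animals. Pregnant 448, with the highest intensity of the interferon tau gene IFNT2 (6.95, against 2.86 in 426, 1.59 in 447), had the lowest RIGI and DHX58 levels of the pregnant group, and 316, with the lowest IFNT2, the lowest IFIH1 and IRF9. Of 23 leukocyte markers only CD74 had a name, at 13.1 to 19.7 against 4.86 to 8.12, called higher on the deposited scale and not with equal column medians. The stroma markers with a name, 3 of 13 and all collagens, were called lower under both scalings, at a summed 107 to 436 against 622 to 1415. With equal column medians 12 of the 86 named genes were called lower. No listed marker of epithelium (14), smooth muscle (6) or endothelium (7) had a name on this array, so the tissue label was not checked against them.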

How the data were processed

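The authors deposited spot intensities on a linear scale for 10 animals on each of the 18KB and 18KO arrays, per the file headers and values; their background subtraction and scaling are not given in the sources used here. Per the labels' protocols, cDNA was labelled with radioactive phosphorus and the 10 arrays of the 18KB kind were processed simultaneously. Values were floored at 0.01 and taken to log2; 0 further sample columns were present. Clones with a single symbol in the platform's gene table were averaged per gene, and the 86 genes were fitted together with the 1334 clones without a single symbol (1420 features) by lmFit and eBayes of limma 3.58.1 in R 4.3.3, pregnant against control, with Benjamini-Hochberg adjustment over all features; clones were fitted over all 1536. The code was tested on simulated data. Pairs of genes were compared by exact permutation over animals. Members and lists were chosen with earlier results of these data known; named genes are the 4 members, all named genes of the RNA sensing, RNA binding and ISGF3 lists, 3 most similar genes per member and markers. Alternatives tried were other scalings, floors, offsets, filters, gene summaries, adjustment over named genes, age, an array block, a robust trended prior and leaving out each animal. No coordinates or sequences were used here, and a planned search of promoters for motifs was not run. Figures were drawn with matplotlib 3.10.9 in Python 3.11.15.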

Additional observations from a re-analysis of the deposited data

Results flagged for a closer look

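Control 427 stood far above the other 5 controls by a test for a single outlying animal, in 5 of 28 group-by-gene or group-by-clone sets examined, where chance alone picks out about 1 in 20. Its mean log2 level of RIGI was 0.79, against -0.63 for the next control. Single clones with the same pattern were RIGI 18KB-08-H01 (2.205 against 1.29), RIGI 18KB-14-C08 (0.93 against -0.23), RIGI 18KB-14-H02 (0.30 against -0.89) and IFIH1 18KB-05-B11 (0.78 against -0.12). These sets share the same animal and array, and the RIGI mean is counted beside its own clones, so they are not separate observations. The 28 also hold sets of pregnant animals, in which control 427 has no value, so 5 of 28 understates its share. No pregnant animal was picked out in any of the 28 sets.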

How the results depend on the processing

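RIGI, IFIH1 and DHX58 kept their direction and call under all 22 alternatives, and 3 or 4 of the 4 genes and 10 to 12 of the 12 clones were called. With the dimmest 25% of clones left out the count was 10 because RIGI clone 18KB-05-D07 and IFIH1 clone 18KB-09-F05 were not fitted. IRF9 lost its call with equal column medians (0.81) and after quantile normalization (0.81), scalings that set the median of all clones to -0.39 and -0.25. Under these scalings 45.3% and 52.3% of all named genes were called higher. The difference of IFIH1 and IRF9 lost its call after quantile normalization (0.54) and with a floor at the 10th percentile (0.43). It also did with the brightest clone per gene (0.067). When each animal was left out, which leaves fewer splits, it ran from 0.46 to 0.65 and the call was lost in 8 of 10. The difference of DHX58 and IRF9 passed with a pseudocount at the 5th percentile (0.45), and ran from 0.295 to 0.49 without each animal, passing without control 404. For IFIH1 and DHX58 the sign turned with the brightest clone per gene (-0.30) and with that pseudocount (-0.05), and the threshold was missed in both. With the RIGI clone of smallest and the IFIH1 clone of largest change, chosen after seeing the data, RIGI minus IFIH1 turned to -0.34 and RIGI minus DHX58 fell to 0.32. The causes were not tested. No paired analysis was possible because pregnant and control heifers are different animals and the genes are named on 1 array only.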
